A study of Mus musculus with 18 samples.

Results

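Kidney cortex from lupus-prone MRL/lpr mice given Multi-target therapy was set against kidney cortex from MRL/lpr mice given FK506 alone. These are the 3 Multi-target mice (numbered 6, 18 and 39) and the 3 FK506 mice (numbered 3, 12 and 24), 6 of the 18 RNA-seq libraries of the series, and all 15035 genes of the deposited table were compared. The other 12 libraries, used here for the spread and as reference points, came from MRL/lpr mice given Vehicle, MMF or Prednisone and from healthy MRL/MpJ wild-type mice given vehicle, 3 mice in each group. All 15 MRL/lpr mice, treated or not, carry the lpr mutation. The labels give no dose, duration, age or sex, and they do not say which drugs make up the Multi-target treatment. No label says that a mouse of one group shares a cage, litter or batch with a mouse of another.

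The lpr mutation is an insertion in Fas, the death receptor through which activated lymphocytes are removed, and mice that carry it on the MRL background develop lymphoproliferation, autoantibodies and an immune-complex nephritis that serves as a model of lupus nephritis. FK506 (tacrolimus) binds the small immunophilin FKBP12, and the complex blocks calcineurin, the phosphatase that sends the transcription factor NFAT into the nucleus of activated T cells. In the clinic, multi-target therapy of lupus nephritis usually means a calcineurin inhibitor with mycophenolate and a glucocorticoid: mycophenolate blocks IMPDH, the enzyme on which lymphocytes depend for new guanine nucleotides, and a glucocorticoid acts through the receptor NR3C1. Calcineurin inhibitors are also known to act on podocytes, the epithelial cells of the glomerular filter, and on salt transport in the distal tubule.

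The deposited values are normalized log2 values, from which an estimated 32421237 to 38969757 reads per library were recovered in the 6 libraries, with a median gene at 730 to 892 reads. All 6 libraries held the defining transcripts of kidney cortex, with Lrp2 (megalin, of the proximal tubule) at 16.06 to 17.20, Slc34a1 at 16.91 to 17.63, Umod (uromodulin, of the loop of Henle) at 17.36 to 17.99 and Slc12a3 (the thiazide-sensitive cotransporter) at 15.09 to 15.27 on the log2 scale. Because the values are not per length, levels are compared between mice and never between genes. In bulk tissue, fewer cells of a type and less RNA per cell cannot be told apart. Fas was listed at 7.73 to 8.18 in the 6 libraries, a level that does not test the lpr insertion. One library stood apart in its adrenal transcripts, though not in its distance to the others over all genes. The FK506 library of mouse 12 held transcripts of the adrenal cortex: Cyp11b1, the last enzyme of corticosterone synthesis, was at 11.47 there and at 4.63 to 5.57 in the other 5 libraries. The 12 measured adrenal cortex genes lay on average 3.89 above their healthy mean in that library and between -0.07 and 0.50 in the other 5. Without that library 0 genes were called as well, and list medians that it moved most are given with and without it.

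Across all genes the arms were alike to the precision that 3 mice against 3 allow. In limma's moderated test, fitted over all 18 libraries with p-values adjusted over all genes by Benjamini-Hochberg, 0 of 15035 genes (0%) were called at 0.05. The smallest adjusted p was 1.00, and 61 genes (0.406%) had an unadjusted p under 0.05, 25 of them higher and 36 lower in Multi-target. With no true difference, about 5% of genes would be expected under that threshold. The p-values therefore ran high in this comparison, where the spread was estimated over all groups. The low count is not evidence that the arms are alike. The median size of the difference was 0.08 on the log2 scale, 98.2% of genes differed by less than 0.5, and 38 genes differed by 1 or more, 14 higher and 24 lower in Multi-target. The median SE was 0.18, larger than the median difference.

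A p above the threshold does not show likeness, so the 95% interval of each difference was read as well. It lay inside -1 to 1, that is within a 2-fold change in either direction, for 13384 genes (89%), and inside -0.5 to 0.5 for 7929 (52.7%). For the remaining genes a difference of 2-fold was not excluded by the interval. The 5 most abundant genes inside the narrower bound were Atp5b and Atp5a1 (subunits of the mitochondrial ATP synthase), Tmbim6, Fth1 (ferritin heavy chain) and Itm2b. Atp5b was at 17.02, 16.96 and 17.17 in FK506 mice 3, 12 and 24, and at 16.96, 16.94 and 17.21 in Multi-target mice 6, 18 and 39, a difference of -0.01 with an interval from -0.48 to 0.46. Values below are given in this order of mice, and all differences are Multi-target minus FK506 on the log2 scale.

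**Figure D1:**
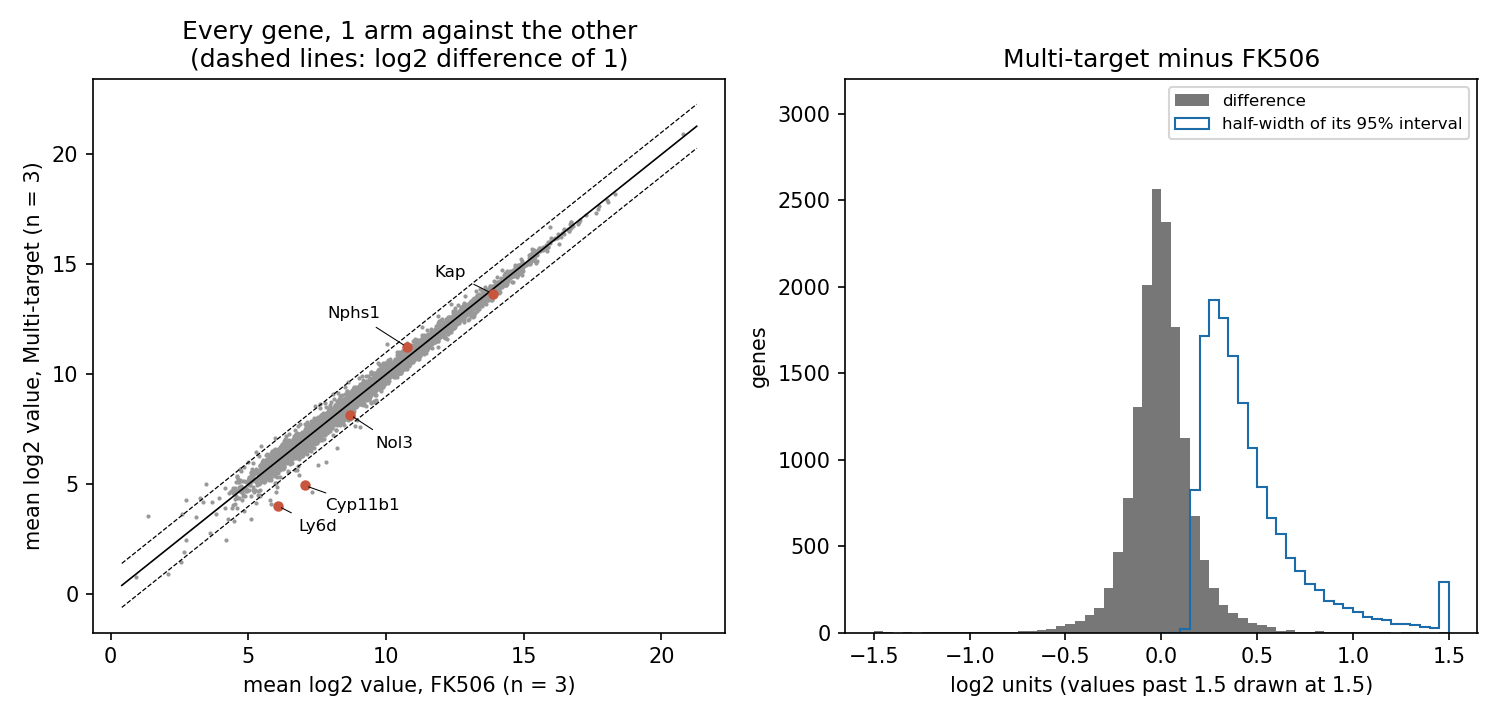
Left, the mean log2 value of every gene in the 3 Multi-target mice (vertical axis) against its mean in the 3 FK506 mice (horizontal axis), with the line of equality and dashed lines at a log2 difference of 1. Right, the number of genes by difference (grey) and by the half-width of its 95% interval (blue outline); the differences gather around 0 (median size 0.08) and the half-widths around 0.39.

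Mice of one arm were no nearer to each other than to mice of the other arm. The root mean square log2 difference over all genes averaged 0.429 (0.346 to 0.478) for the 3 pairs of FK506 mice and 0.428 (0.322 to 0.562) for the 3 pairs of Multi-target mice. It averaged 0.389 (0.290 to 0.527) for the 9 pairs that cross the arms. For 5 of the 6 mice the nearest library was in the other arm: FK506 mouse 12 and Multi-target mouse 6 were each other's nearest (0.290), and so were FK506 mouse 24 and Multi-target mouse 39 (0.302). The exception was Multi-target mouse 18, nearest to Multi-target mouse 6 (0.322). Between group means, FK506 and Multi-target were the closest of the 15 pairs of groups (0.178), followed by Prednisone and Multi-target (0.261).

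**Figure D2:**
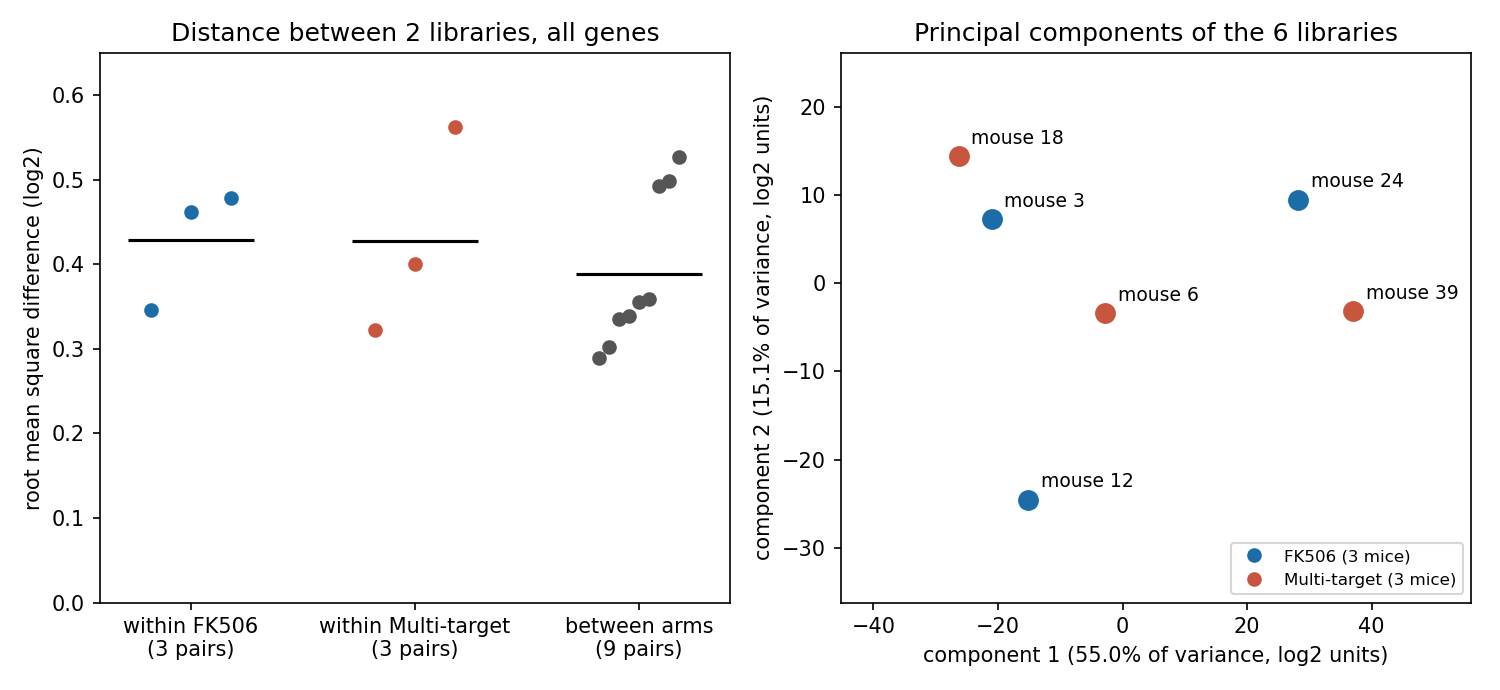
Left, the root mean square log2 difference over 15035 genes for each pair of libraries (points) with the mean of each kind of pair (lines); the 9 pairs between arms average 0.389, against 0.429 and 0.428 within arms. Right, the 6 libraries on the first 2 principal components of their log2 values; mice 24 and 39, of different arms, lie together on the right, and FK506 mouse 12 lies apart at the bottom.

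The largest axis among the 6 mice ran across the arms. The first principal component held 55.0% of the variance, and 1.19% of its own variance lay between the arms. FK506 mouse 24 (28.3) and Multi-target mouse 39 (37.0) were at its positive end, and the other 4 mice lay between -26.3 and -2.8. The gene that led it was Kap, the kidney androgen-regulated protein of the proximal tubule, at 12.14, 12.07 and 17.42 in FK506 and 13.31, 11.99 and 15.71 in Multi-target. Chrm2, a muscarinic receptor, followed the same mice, at 6.97, 7.08 and 12.16 against 7.99, 6.79 and 10.52. At the other end, Cyp2d9, a male-biased liver-type cytochrome P450, was at 12.60, 12.59 and 10.11 against 12.83, 13.48 and 9.46. In these 3 genes, chosen as leaders of the component after their values were seen, 1 mouse of each arm differed from its 2 arm-mates in the same direction. The prolactin receptor Prlr was also high in those 2 mice, at 9.18, 9.21 and 11.60 in FK506 and 8.79, 8.84 and 11.68 in Multi-target, with a healthy mean of 13.01 and a vehicle mean of 9.82. Xist lay between 12.77 and 13.91 and the Y-linked Ddx3y between 7.69 and 8.31 in the same 6 libraries, so these sex-linked transcripts did not divide them.

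The second component (15.1% of the variance) set FK506 mouse 12 apart, at -24.5, and the 10 leading genes at that end were all highest in that library; they were led by the steroidogenic genes Cyp11b1, Hsd3b1 and Cyp21a1. The fourth component had the largest share of its variance between the arms (53.2%) and held 9.63% of the total. Over all genes 11.1% of the variance lay between the arms.

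**Figure D3:**
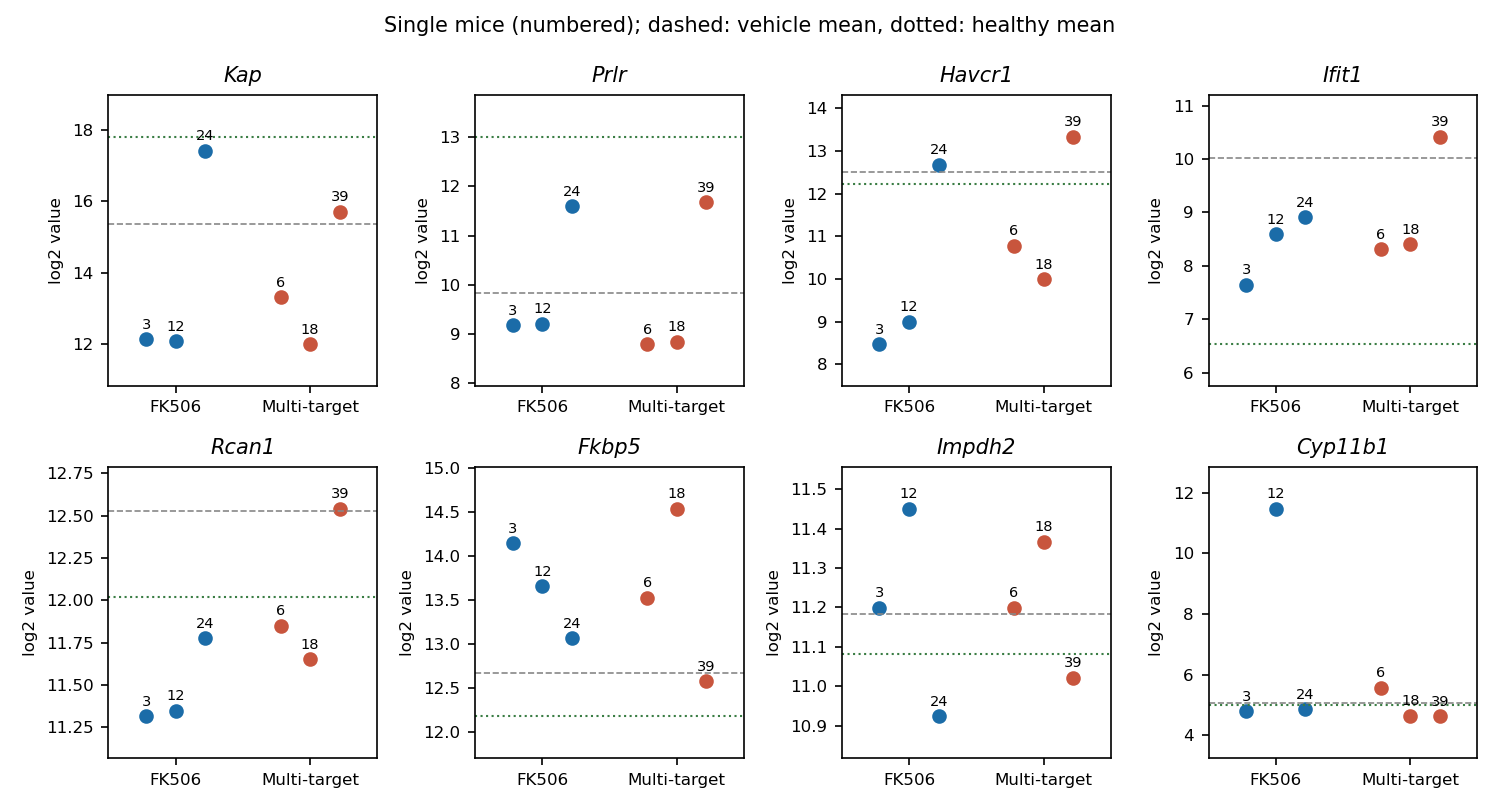
Log2 values (vertical axes) of 8 genes in the 6 mice, numbered, with the vehicle mean (dashed) and the healthy mean (dotted). Kap and Prlr are high in mice 24 and 39, 1 from each arm, and Cyp11b1 is high in FK506 mouse 12 alone.

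The question of whether the combined treatment moved the kidney further from the untreated disease than FK506 did was addressed along the vehicle-minus-healthy difference, which shares no library with the comparison of the arms. Vehicle mice had 2353 genes called higher (15.7%) and 1016 called lower (6.76%) than healthy mice. On a scale where healthy mice average 0 and vehicle mice 1, the FK506 libraries lay at 0.525, 0.630 and 0.543 (mean 0.566 ± 0.056, SD, n = 3) and the Multi-target libraries at 0.582, 0.543 and 0.597 (mean 0.574 ± 0.028, SD, n = 3). The arms overlapped, and their means differed by 0.008, less than the SD within either arm. Vehicle mice spread from 0.778 to 1.30 on this scale, above all 6. The scale was built from these vehicle mice, whose mean is 1 by construction, so that gap is partly fixed in advance. The genes called higher in vehicle lay a median 0.52 above healthy in Multi-target and 0.50 in FK506, against 0.89 in vehicle. The genes called lower lay a median -0.42 from healthy in Multi-target and -0.39 in FK506, against -0.71 in vehicle. Both sets of genes were chosen with these same vehicle and healthy mice, a choice that favours large vehicle medians. The gap between vehicle and the arms is therefore biased and does not measure an effect of treatment. The arms took no part in the choice and can be set side by side.

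Set against vehicle, neither arm had a called gene (0%), and 2341 genes (15.6%) in Multi-target and 2987 (19.9%) in FK506 had an unadjusted p under 0.05. Set against healthy, 1049 genes (6.98%) were called in Multi-target and 1093 (7.27%) in FK506. The counts of each arm share the vehicle or healthy mice and are given side by side only.

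Gene lists are described by their counts and medians. With each of the 6 mice left out in turn, 17 of the 38 list medians kept their sign and 21 took the other sign at least once.

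None of the genes of the drugs' own pathways was called, and most lay at like levels in the arms. Of the calcineurin and NFAT list, 18 of 20 genes were measured, 4 were above 0 and the median difference was -0.06, beside -0.01 for all genes. The catalytic subunit Ppp3ca was at 11.70, 11.66 and 11.68 in FK506 and 11.58, 11.72 and 11.61 in Multi-target, and the interval of its difference ran from -0.29 to 0.19. Fkbp1a, which encodes FKBP12, was at 12.25, 12.51 and 12.73 against 12.52, 12.31 and 12.88, with an interval from -0.39 to 0.53. Both genes overlapped between arms and their intervals exclude a 2-fold difference. Rcan1, a calcineurin-NFAT target that in turn inhibits calcineurin, was at 11.31, 11.35 and 11.78 in FK506 and at 11.85, 11.65 and 12.54 in Multi-target. The difference was 0.54 ± 0.35 (SE, n = 3 per arm; limma adjusted p = 1.00) with an interval from -0.22 to 1.29; Multi-target mouse 39 was the highest and mouse 18 lay below FK506 mouse 24. Against the vehicle mean of 12.53, the fitted difference was -1.05 for FK506 and -0.51 for Multi-target, neither called. Of the 14 FK506-binding proteins measured, 12 were above 0 with a median of 0.05, and 1, Fkbp15, did not overlap between the arms, where 4.62% of all genes did not; it had a difference of 0.13 ± 0.08 (SE).

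Purine genes, where mycophenolate acts, were among the most alike. All 18 listed genes of purine synthesis and salvage were measured, 10 were above 0, the median difference was 0.01, and the interval lay inside -0.5 to 0.5 for 15 of them, against 52.7% of all genes. Impdh2, the isoform of proliferating lymphocytes, was at 11.20, 11.45 and 10.92 in FK506 and 11.20, 11.37 and 11.02 in Multi-target, with an interval from -0.36 to 0.37. Impdh1 was at 8.81, 9.18 and 8.81 against 8.94, 8.63 and 8.83, with an interval from -0.52 to 0.26. The mice of the arms interleave for both isoforms.

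Genes that glucocorticoids induce varied more between mice than between arms. Of 28 listed genes 27 were measured, 10 were above 0, none was without overlap between the arms, and the median difference was -0.08. With 1 mouse left out, that median ran from -0.24 without mouse 18 to 0.08 without mouse 39. It was -0.13 without FK506 mouse 24 and 0.03 without FK506 mouse 3. Fkbp5, a classic receptor target that holds the receptor inactive, was at 14.15, 13.66 and 13.06 in FK506 and at 13.53, 14.54 and 12.58 in Multi-target, a difference of -0.08 ± 0.48 (SE). Tsc22d3 (GILZ, an anti-inflammatory target) was at 12.28, 12.22 and 12.55 against 12.34, 12.44 and 11.85, and Per1 at 12.90, 12.26 and 12.06 against 12.23, 12.45 and 11.70. Multi-target mouse 39 had the lowest value of the 6 in all 3 genes. For Fkbp5 the interval ran from -1.09 to 0.94, so a 2-fold lower value in Multi-target was not excluded. The receptor itself, Nr3c1, was at 12.37, 12.30 and 12.25 against 12.13, 11.76 and 12.30, a difference of -0.24 ± 0.14 (SE).

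Promoters of listed steroid-response genes were searched for the palindromic receptor element, spelled GNACA, any 3 bases and TGTNC, on both strands, in RefSeq windows (GRCm38.p6) from 250 bases before to 50 after a transcript's start. It was present in 0.475% of all 32851 windows and in 2 of the 35 windows of the 22 listed genes that had one, those of Sgk1, a kinase that raises tubular sodium transport, and Mt1, metallothionein. The 250 bases before the start are shown for both, because they are the listed genes whose own promoter carries the letters; the match is in capitals.
Sgk1 (GRCm38.p6, chr10:21993640-21993889, plus strand): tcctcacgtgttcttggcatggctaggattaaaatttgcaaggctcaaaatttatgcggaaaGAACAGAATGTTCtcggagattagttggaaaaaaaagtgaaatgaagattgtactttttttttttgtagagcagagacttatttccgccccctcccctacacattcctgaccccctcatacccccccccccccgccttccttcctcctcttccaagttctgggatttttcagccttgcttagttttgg
Mt1 (GRCm38.p6, chr8:94178839-94179088, plus strand): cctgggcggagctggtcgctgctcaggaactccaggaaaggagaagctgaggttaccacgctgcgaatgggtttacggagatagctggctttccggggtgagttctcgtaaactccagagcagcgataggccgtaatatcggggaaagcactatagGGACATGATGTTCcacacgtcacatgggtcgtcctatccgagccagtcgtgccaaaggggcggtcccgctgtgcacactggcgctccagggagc
A match is a description of the sequence and not evidence of binding. Sgk1 was at 13.68, 13.68 and 14.07 in FK506 and 13.69, 13.29 and 13.21 in Multi-target, a difference of -0.41 ± 0.36 (SE; limma adjusted p = 1.00). Mt1 was at 12.98, 12.82 and 12.50 against 12.88, 13.51 and 12.69, a difference of 0.26 ± 0.35 (SE). The arms overlapped in both genes and the estimates have opposite signs. Clock genes, many of them steroid-responsive, had 3 of 18 above 0 and a median of -0.14; Bhlhe40, a clock repressor, was at 13.04, 13.26 and 13.36 against 12.41, 12.73 and 13.20, a difference of -0.44 ± 0.20 (SE; unadjusted p = 0.046 and adjusted p = 1.00 in limma).

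Genes of antigen presentation were among the lists with the largest disease difference, with class II the largest, and lay at like levels in both arms. The 12 class II genes were a median 4.31 higher in vehicle than in healthy mice, and the medians against vehicle were -1.36 in Multi-target and -1.32 in FK506. Between the arms 3 of the 12 were above 0 with a median of -0.08, which was 0.23 without mouse 18 and -0.21 without mouse 6. Ctss, the protease that trims the invariant chain, was at 11.32, 11.91 and 11.76 in FK506 and 11.66, 11.32 and 11.55 in Multi-target, against vehicle and healthy means of 13.17 and 8.43. All 6 treated mice lay between those means. The 19 genes of class I and the immunoproteasome had a median difference of -0.02 (0.18 without mouse 18), with 9 above 0, and 17 had an interval inside -1 to 1. The interferon-inducible GTPases had 8 of 16 above 0 and a median of 0.01 (0.44 without mouse 18 and -0.47 without mouse 39), and the mice spread widely: the list mean lay 2.33, 2.24 and 2.93 above healthy in FK506 and 2.46, 1.49 and 3.50 in Multi-target. Mouse 39 was the highest of the 6 and mouse 18, of the same arm, the lowest.

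Type I interferon-stimulated genes leaned to one side, with a single mouse well above the others. Of 30 measured genes 28 were above 0, with a median difference of 0.33, and none was called or free of overlap. The list mean lay 0.67, 1.06 and 1.15 above healthy in FK506 and 0.91, 1.01 and 1.96 in Multi-target, so that mouse 39 stood above the rest and the other 5 interleaved. Without mouse 39 the median difference was -0.01. The promoters of the list were searched for the interferon-stimulated response element in the form GAAA, any 2 bases and GAAA, on both strands, with overlapping matches counted; 12 of the 20 genes with a window held it, in 12 of 23 windows, against 3.44% of all windows. Those of Isg15, a ubiquitin-like modifier, and Ifit1, which binds viral RNA, are shown as examples from the list, with the matches in capitals. The list was made of genes known to respond to interferon, so the share of windows with the element describes the list. It says nothing about the arms or mouse 39.
Isg15 (GRCm38.p6, chr4:156200819-156201068, minus strand): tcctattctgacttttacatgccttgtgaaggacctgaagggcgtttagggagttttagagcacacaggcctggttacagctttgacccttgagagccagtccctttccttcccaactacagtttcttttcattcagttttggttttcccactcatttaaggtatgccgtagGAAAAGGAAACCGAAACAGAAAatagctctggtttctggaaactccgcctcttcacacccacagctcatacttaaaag
Ifit1 (GRCm38.p6, chr19:34640639-34640888, plus strand): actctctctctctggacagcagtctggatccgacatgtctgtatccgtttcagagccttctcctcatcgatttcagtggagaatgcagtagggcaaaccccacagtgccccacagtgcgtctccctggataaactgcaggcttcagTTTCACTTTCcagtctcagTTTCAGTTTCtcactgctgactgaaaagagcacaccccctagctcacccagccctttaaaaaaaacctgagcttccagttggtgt
In Isg15 the 3 matches overlap in one run, and in Ifit1 the 2 matches lie on the strand opposite to the one printed. Isg15 was at 7.28, 8.25 and 8.30 in FK506 and 7.72, 7.91 and 9.77 in Multi-target. Ifit1 was at 7.65, 8.59 and 8.91 against 8.31, 8.41 and 10.42, a difference of 0.66 ± 0.76 (SE). In both genes mouse 39 was the highest of the 6 and FK506 mouse 3 the lowest.

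**Figure D4:**
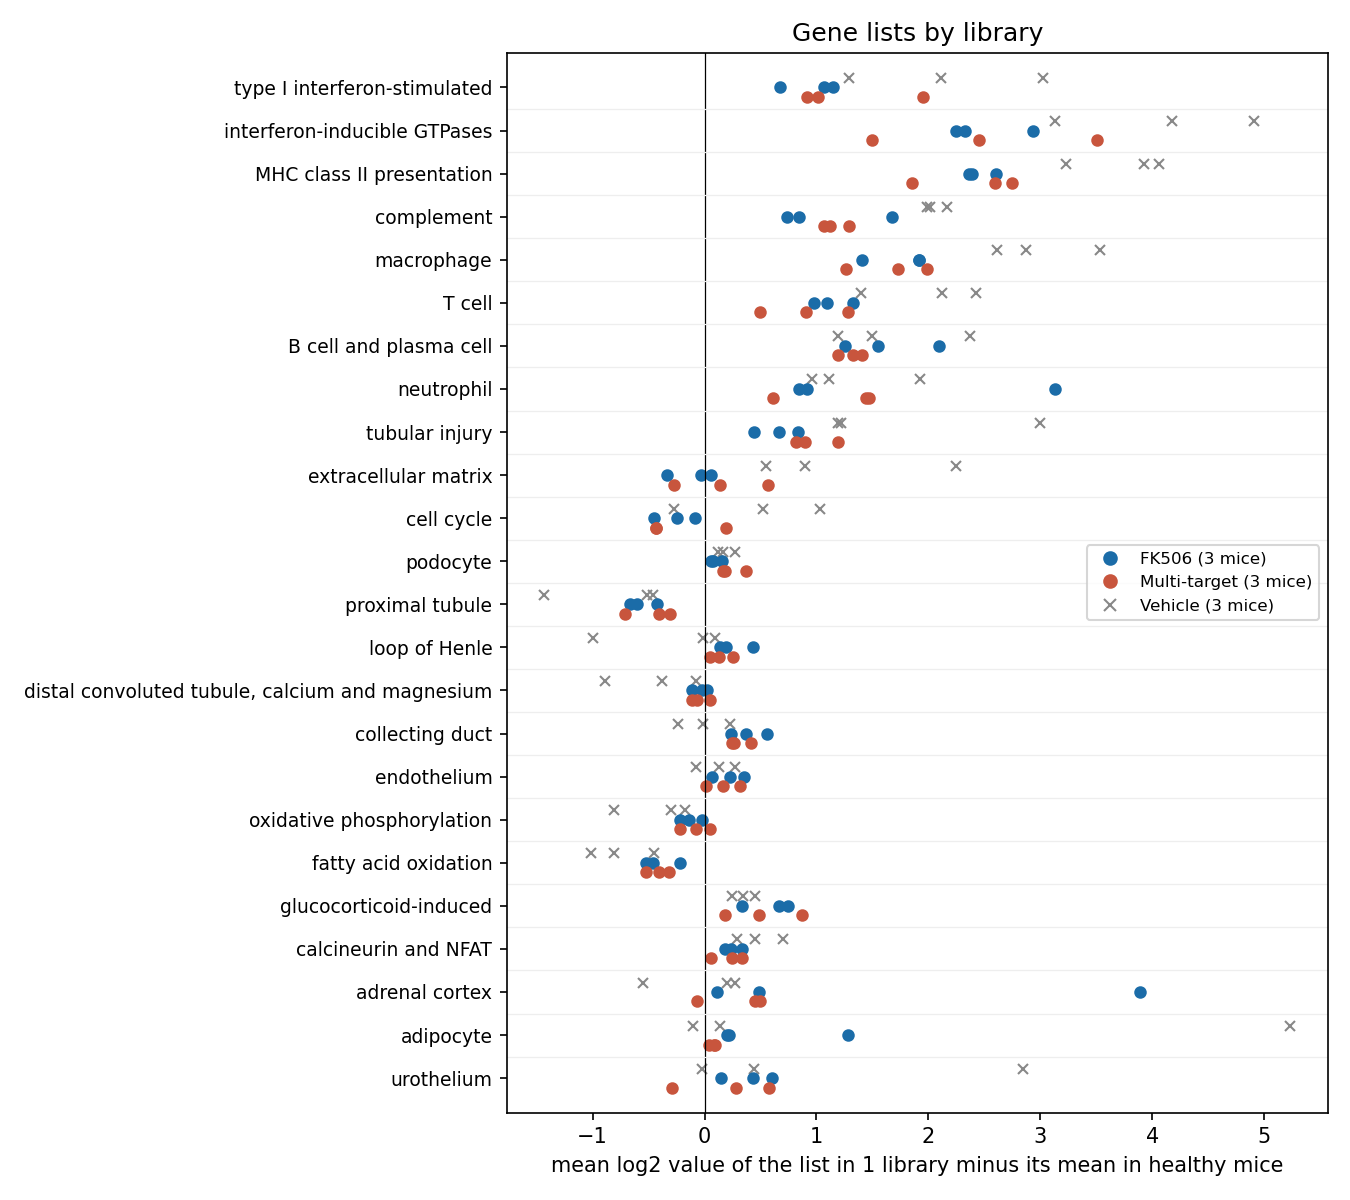
Mean log2 value of each gene list in 1 library minus its mean in healthy mice (horizontal axis), for the FK506, Multi-target and Vehicle mice (3 points each). The treated arms overlap in 36 of the 38 lists computed (24 are drawn), the exceptions being podocyte and adipocyte; the podocyte means are 0.06 to 0.15 in FK506 and 0.16 to 0.37 in Multi-target, and the adrenal mean of 3.89 is FK506 mouse 12.

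Lymphocyte genes were more often below 0 than above it, by amounts within the spread between mice. The T cell list had 1 of 19 measured genes above 0 and a median difference of -0.24, and its mean lay 1.33, 0.97 and 1.10 above healthy in FK506 and 0.91, 0.50 and 1.28 in Multi-target. Cd3g, a chain of the T cell receptor complex, was at 7.95, 7.34 and 7.61 against 7.01, 6.54 and 7.58, a difference of -0.58 ± 0.40 (SE; limma adjusted p = 1.00). Multi-target mouse 39 lay within the FK506 range, and without mouse 18 the list median was -0.04. Of 13 measured B cell and plasma cell genes 2 were above 0, with a median of -0.22; Prdm1 (Blimp-1, the plasma cell regulator) was at 7.38, 7.20 and 7.31 against 6.83, 6.14 and 7.31, a difference of -0.54 ± 0.24 (SE; unadjusted p = 0.040 and adjusted p = 1.00 in limma). The cytotoxic list had 1 of 7 measured genes above 0 and a median of -0.33, which was 0.02 without mouse 18; Gzmk, a granzyme, was at 5.57, 5.53 and 5.70 against 4.95, 5.09 and 5.42, without overlap.

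Among myeloid genes none was called, and the medians moved with single mice. Of 25 measured macrophage genes 8 were above 0, with a median of -0.07 that was 0.07 without mouse 18 and 0.03 without FK506 mouse 24. Itgam (CD11b) was at 9.61, 10.52 and 9.67 in FK506 and 9.56, 9.19 and 9.81 in Multi-target, a difference of -0.41 that was -0.12 without FK506 mouse 12. The neutrophil list had 2 of 11 above 0 and a median of -0.43, but 0.22 without FK506 mouse 12, where its mean lay 3.13 above healthy against 0.61 to 1.47 in the other 5. Mpo, the granule peroxidase, was at 8.92 in that mouse and at 6.74 to 7.11 in the others. Complement genes had 14 of 17 above 0 with a median of 0.23, which was 0.41 without FK506 mouse 12 and 0.07 without any 1 of FK506 mice 3 and 24 and Multi-target mouse 6. Chemokines and cytokines had 11 of 20 above 0 with a median of 0.08, which was -0.11 without mouse 39 and -0.07 without FK506 mouse 3. Ccl2, the main monocyte chemoattractant, was at 4.57, 6.02 and 7.27 against 6.89, 6.34 and 8.11, with an interval from -1.48 to 3.79. At this spread a difference of 2-fold in Ccl2 was not detectable.

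Podocyte genes held the smallest p among the lists. Nphs1 encodes nephrin, the core of the slit diaphragm between podocyte foot processes; the gene lies at chr7:30458315-30487223 (GRCm38, plus strand, protein coding). It was at 10.72, 10.70 and 10.87 in FK506 and at 11.37, 11.27 and 11.08 in Multi-target (10.76 ± 0.09 against 11.24 ± 0.15, SD, n = 3 each), and the arms did not overlap. The difference was 0.48 ± 0.15 (SE; unadjusted p = 0.0056 and adjusted p = 1.00 in limma), with an interval from 0.16 to 0.79. The vehicle and healthy means of Nphs1 were 10.85 and 10.68, near the FK506 values. Leaving out any 1 of the 6 mice gave differences from 0.41 to 0.56, where the sign could not turn because the arms did not overlap.

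All 22 listed podocyte genes were measured; 14 were above 0, the median difference was 0.08, and 3 (Nphs1, Ptpro and Nes) were higher in Multi-target without overlap, where 2.22% of all genes were. Ptpro, a podocyte receptor phosphatase, was at 10.19, 10.26 and 10.43 against 10.82, 10.47 and 10.50, a difference of 0.30 ± 0.15 (SE). Nes, nestin, was at 10.55, 10.74 and 10.38 against 11.27, 10.90 and 10.74. Other genes of the cell type gave smaller differences: Wt1, its master regulator, was at 9.59, 9.55 and 9.04 against 9.64, 9.67 and 9.01, a difference of 0.05 ± 0.27 (SE), and Podxl, its surface sialomucin, gave 0.13 ± 0.21 (SE). Ptpro, Nes, Wt1 and Podxl were picked after their values were seen. The list mean lay 0.08, 0.15 and 0.06 above healthy in FK506 and 0.37, 0.16 and 0.19 in Multi-target, and in vehicle mice 0.16, 0.27 and 0.12. The list median was 0.19 without mouse 39 and 0.01 without mouse 6. Endothelial genes, which share the glomerulus, had 7 of 20 above 0 and a median of -0.06 (0.02 without FK506 mouse 12). The endothelial genes with the smallest p were higher in Multi-target, Emcn (endomucin) by 0.29 ± 0.15 (SE) and Ehd3, of the glomerular endothelium, by 0.29 ± 0.19 (SE). The mesangium and renin cell list had 8 of 15 genes above 0 and a median of 0.08. Its member with the smallest p, Pdgfrb, a receptor of mesangial cells and pericytes, was at 10.24, 10.81 and 10.14 against 11.04, 10.35 and 11.19, a difference of 0.46 ± 0.27 (SE). The arms overlapped in these 3 genes. The share of glomeruli in each piece of cortex was not measured, and its part in these differences was not tested.

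Outside the podocyte, the genes with the smallest p among those of at least moderate level and without overlap had varied functions. The 8 highest in Multi-target were Nphs1, Acpp, Tdrd5, Rarb, Cep97, A2m, Eps8l2 and Pqlc2, with differences from 0.25 to 0.48. Acpp, an acid phosphatase, was at 8.31, 8.21 and 8.35 in FK506 and at 9.10, 8.45 and 8.76 in Multi-target, a difference of 0.48 ± 0.16 (SE; unadjusted p = 0.0080). Tdrd5, a Tudor-domain protein known from germ cells, was at 8.78, 8.79 and 8.83 against 9.36, 8.99 and 9.24; its gene lies at chr1:156255296-156303664 (GRCm38, minus strand). Rarb, a retinoic acid receptor, was at 8.94, 9.09 and 9.07 against 9.68, 9.20 and 9.51. In Acpp, Tdrd5 and Rarb mouse 6 was the highest of the 6 and mouse 18 the Multi-target mouse nearest to FK506.

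The 8 lowest in Multi-target were Nol3, Kcnj10, Prob1, Mfhas1, Abcd3, Tbc1d16, Gprc5b and Irf2bpl, with differences from -0.52 to -0.23. Nol3, an inhibitor of cell death, was at 8.80, 8.65 and 8.61 in FK506 and at 8.23, 8.37 and 7.90 in Multi-target, a difference of -0.52 ± 0.18 (SE; unadjusted p = 0.012). Kcnj10, the basolateral potassium channel Kir4.1 of the distal convoluted tubule, was at 12.85, 12.84 and 12.70 against 12.49, 12.38 and 12.54, a difference of -0.32 ± 0.11 (SE; unadjusted p = 0.013). Vehicle and healthy means of Kcnj10 were 12.28 and 12.50, so that the Multi-target mice lay near healthy and the FK506 mice above both. Abcd3, a peroxisomal fatty acid transporter, was at 13.81, 13.76 and 13.92 against 13.43, 13.26 and 13.59, with vehicle and healthy means of 13.36 and 14.46. None of the 16 genes was called (limma adjusted p = 1.00 for each), and 695 genes (4.62%) had arms that did not overlap, 334 of them higher (2.22%) and 361 lower (2.4%) in Multi-target.

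**Figure D5:**
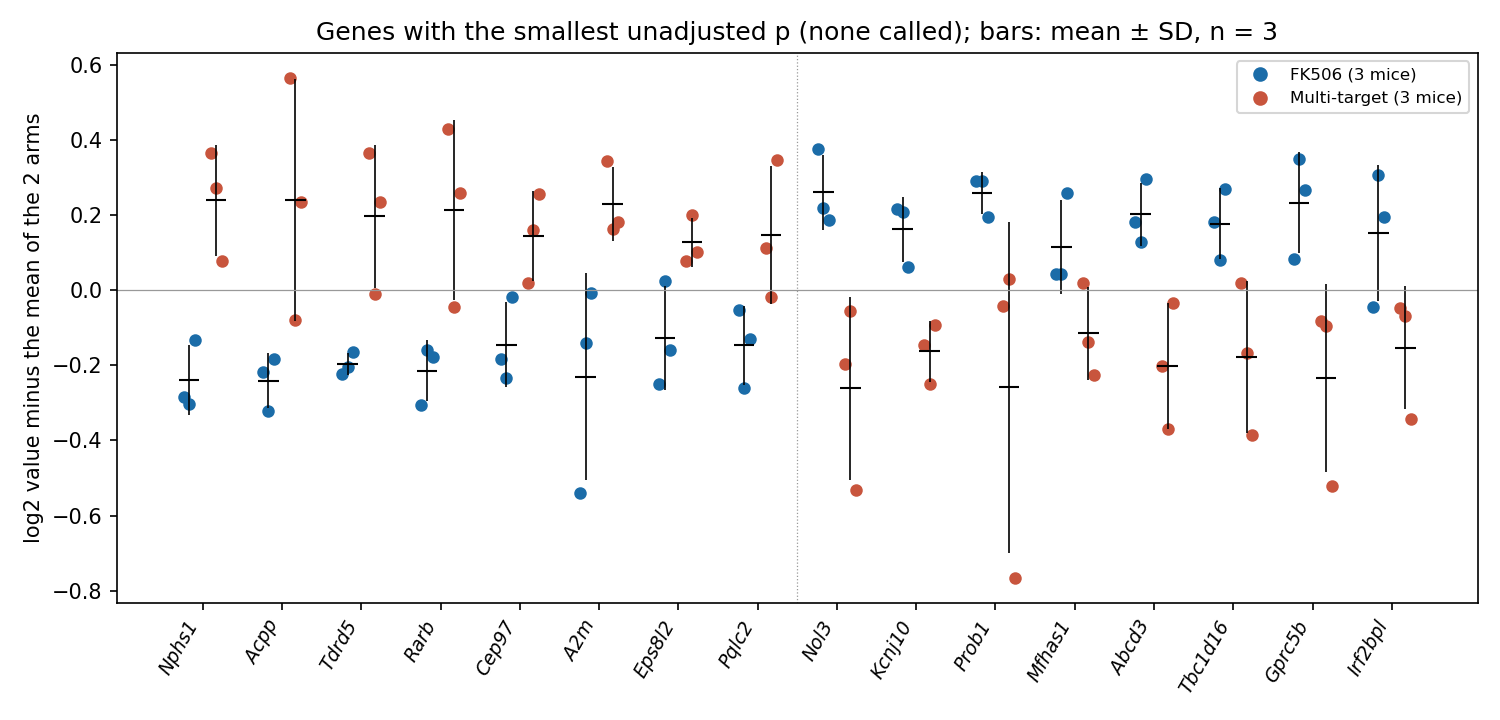
Log2 values of 16 genes in the 6 mice, each gene centred on the mean of the 2 arms (vertical axis), with mean ± SD (n = 3 per arm). The 8 genes on the left are higher and the 8 on the right lower in Multi-target, and the arms do not overlap for any of them, by the rule that chose them.

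The 4 tubule segments had list medians from -0.14 to 0.04. The 32 proximal tubule genes had 18 above 0 and a median of 0.04 (0.28 without mouse 18 and -0.07 without mouse 39); Slc7a7, the basolateral exporter of cationic amino acids, was at 13.68, 13.72 and 13.38 in FK506 and 14.21, 13.90 and 13.84 in Multi-target, without overlap, a difference of 0.39 ± 0.20 (SE). Loop of Henle genes had 3 of 15 above 0 and a median of -0.14. In the distal convoluted tubule 7 of 20 genes were above 0, the median was -0.03, and 19 had an interval inside -1 to 1. Slc12a3, the transporter on which calcineurin inhibitors are known to act, was at 15.24, 15.14 and 15.15 against 15.13, 15.09 and 15.27, with an interval from -0.53 to 0.51. The collecting duct list had 5 of 19 measured genes above 0 and a median of -0.09. Aqp3, the basolateral water channel, was at 12.56, 12.42 and 12.44 against 12.38, 12.06 and 11.87, a difference of -0.37 ± 0.17 (SE; unadjusted p = 0.046 and adjusted p = 1.00 in limma), without overlap. Aqp2, the vasopressin-regulated channel, was at 13.05, 12.84 and 13.02 against 12.92, 12.86 and 11.62, and there mouse 39 alone was low.

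Injury and matrix genes leaned to higher values in Multi-target, again with mouse 39 the highest. Of 27 injury genes 23 were above 0 with a median of 0.18. That median was 0.19 without mouse 39 and 0.12 to 0.28 with any 1 mouse left out. The injury list mean lay 0.44, 0.84 and 0.66 above healthy in FK506 and 0.82, 0.90 and 1.19 in Multi-target. Havcr1 (KIM-1, the proximal tubule injury marker) was at 8.470, 9.003 and 12.68 against 10.79, 9.999 and 13.34, so that the mouse-to-mouse range within each arm was larger than the difference of 1.32 ± 1.24 (SE). Timp1, an inhibitor of matrix proteases, was at 4.63, 5.77 and 5.98 against 6.20, 5.92 and 8.11. The 29 matrix genes had 26 above 0 and a median of 0.24, and 0.01 without mouse 39; Bgn, biglycan, was at 12.09, 12.98 and 12.78 against 13.24, 12.68 and 13.47. Of 32 cell cycle genes 18 were above 0, with a median of 0.04 (-0.18 without mouse 39).

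Of the 38 lists, oxidative phosphorylation had the largest share of genes inside the narrower bound. All 42 genes of oxidative phosphorylation had an interval inside -1 to 1 and 37 had one inside -0.5 to 0.5, where 89% and 52.7% of all genes did; 32 were above 0 and the median was 0.06. Cox4i1, a subunit of complex IV, was at 14.93, 14.90 and 14.84 in FK506 and 14.92, 15.17 and 14.94 in Multi-target. Fatty acid oxidation had 13 of 30 above 0 with a median of -0.02, gluconeogenesis and glycolysis 10 of 23 with a median of -0.02, sterol synthesis 6 of 23 with a median of -0.13, and xenobiotic metabolism and transport 17 of 39 measured with a median of -0.06.

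Genes of the adrenal cortex, blood and fat were among those with the largest differences, beside kidney genes such as Havcr1. Of the 24 genes at least 1 lower in Multi-target, 7 belonged to the adrenal cortex list, whose 12 measured genes were all below 0 with a median of -1.52. Star, the cholesterol carrier of steroid synthesis, was at 7.87, 11.89 and 7.41 in FK506 and 7.63, 7.73 and 7.45 in Multi-target, and without FK506 mouse 12 the list median was 0.06. Erythroid genes were below 0 in all 6 measured, with a median of -0.44; Hba-a1, an alpha globin with a near-identical copy, was at 5.69, 4.72 and 7.07 against 4.49, 3.51 and 4.38. Adipocyte genes had 1 of 13 measured above 0 and a median of -0.37, but -0.03 without FK506 mouse 12, where the list mean lay 1.28 above healthy against 0.04 to 0.22 in the other 5. Adipoq, adiponectin, was at 4.72, 5.39 and 4.42 against 3.95, 3.51 and 3.84. Urothelium had 3 of 10 above 0 and a median of -0.29, or 0.09 without mouse 39. How much blood, fat or urothelium was taken with each cortex was not measured, and its part in these values was not tested.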

How the data were processed

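Total RNA of kidney cortex was sequenced (TruSeq libraries, per the labels' protocols). The authors deposited 1 table per library of log2 values per gene symbol; the submitters' processing notes name limma and mm10, while for aligner, annotation and normalization the method was not given in the sources used here. Linear values under 2000 were whole multiples of 1 step, within 0.001 reads, for 75.7 to 76.1% of genes, which gave an estimate of depth but not counts fit for a count test. Differences were fitted with limma 3.58.1 in R 4.3.3 as group means over all 18 libraries (eBayes with a mean-variance trend), so the 6 groups share 1 estimate of the spread, and adjusted over 15035 genes by Benjamini-Hochberg at 0.05; the fit was tested on simulated data. An exact permutation test of 3 against 3 cannot go below p = 0.1. Replicates are separate mice. Genes named were, among genes whose arms do not overlap, whose mean exceeds the lower quartile and whose symbol is a plain gene name, the 8 with the smallest p in each direction (no gene was called), the 2 with the smallest p in each list described, 18 drug-target and disease genes on a further list, and the 5 most abundant genes with an interval inside -0.5 to 0.5; others are said to be picked from their values, or illustrate a promoter, a component or the cortex. Some genes that the rule names are not reported here. The comparison, the 38 gene lists and the tests were chosen with earlier results of these data known. In 23 rows the symbol had become a spreadsheet date; these were tested and not named. RefSeq promoters and GENCODE M21 coordinates are on GRCm38.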

Additional observations from a re-analysis of the deposited data

How the results depend on the processing

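No paired analysis was possible because the arms share no mouse numbers. Of the 14 alternatives, 13 gave 0 called genes: the 6 libraries of the arms or the 15 MRL/lpr libraries alone, quantile or median scaling, no low genes, a pseudocount of 16, no variance trend, and leaving out each mouse (0 to 0). Array weights gave 2049 called genes (694 higher, 1355 lower), with Multi-target mouse 6 weighted 26.6, FK506 mouse 12 at 4.58 and the other 4 mice 0.408 to 0.694; the weights did not converge, and the calls rest on those 2 libraries. Genes at an unadjusted p under 0.05 went from 61 to 137 with the 6 libraries, 33 without healthy, 36 without the lowest 25% of genes, and 101, 190, 122 and 121 without mice 12, 24, 18 and 39. Genes with non-overlapping arms went from 695 to between 1438 and 3379 with 1 mouse left out, where 2 mice against 3 overlap less readily. Without 1 mouse, 12509 to 12979 genes had an interval inside -1 to 1 and the disease-axis difference was -0.0124 to 0.0400. Medians moved beyond 1 SD in 17 of 530 list and setting pairs. With array weights they were 0.28 for class II, -1.499 for neutrophil, 0.25 for proximal tubule, -0.14 for distal convoluted tubule, -3.02 for adrenal cortex and -0.44 for lymphoid stroma genes, and without the lowest 25% of genes 0.0712 for urothelium. Leaving out 1 mouse gave -2.33 to 0.0628 for adrenal cortex, -0.0954 to 0.0028 for gluconeogenesis and glycolysis, -0.0602 to 0.113 for fatty acid oxidation, -0.140 to -0.0075 for xenobiotic genes, 0.0229 to 0.0932 for FK506-binding proteins, -0.0651 to 0.280 for proximal tubule, 0.0056 to 0.193 for podocyte and -0.464 to 0.0943 for urothelium. The Nphs1 difference ran from 0.41 to 0.65 over the 14 alternatives. Because Nphs1 was chosen with arms that do not overlap, leaving out a mouse could not turn its sign. The cause of these shifts was not tested beyond the number of mice left.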

Other observations

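The following genes fall outside the rule for named genes and were picked after their values were seen. Ly6d, a surface protein of early B cells and of some epithelia, had a low level and differed by -2.05 ± 0.66 (SE, n = 3 per arm; unadjusted p = 0.0070 and adjusted p = 1.00 in limma). It was at 5.92, 7.25 and 5.03 in FK506 mice 3, 12 and 24 and at 3.71, 3.89 and 4.47 in Multi-target mice 6, 18 and 39, without overlap, and its vehicle and healthy means were 6.45 and 3.82. Apcs, serum amyloid P, had the largest positive difference, 2.24 ± 1.15 (SE, unadjusted p = 0.071 in limma). Apcs was at 1.40, 2.46 and 0.17 against 3.42, 4.36 and 2.96, and its healthy mean was 0.17 and its vehicle mean 4.64. These levels are so low that few reads stand behind the difference. Rpph1, the RNA of RNase P, was at 7.42 in Multi-target mouse 18 and at 2.17 to 3.31 in the other 5 mice.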
